A study of Drosophila melanogaster with 18 samples.

Results

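The genes described here encode the subunits of the proteasome in BG3 cells, a line from the larval central nervous system of Drosophila melanogaster. They were chosen by name alone, as every gene counted in the RNA-seq libraries whose symbol begins with Prosalpha, Prosbeta, Pros and a digit, Rpn and a digit, or Rpt and a digit. The rule took 47 of 16727 genes, of which 32 are core subunits and 15 are paralogs marked with a T or an R. Messenger RNA was sequenced from cells in which BEAF-32 was knocked down alone (BEAF-32 RNAi), from cells with both Cp190 and Chro knocked down (Cp190 Chro RNAi), from cells with both BEAF-32 and Dref knocked down (BEAF-32 Dref RNAi) and from WT cells, with 3 libraries per group. Knockdown cells received double-stranded RNA with a transfection reagent and were kept for 72 h. No control double-stranded RNA for WT cells is given in the sources used here, so the effect of a knockdown and that of the treatment itself cannot be told apart. All 3 knockdowns were set against the same 3 WT libraries.

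The proteasome degrades proteins that carry chains of ubiquitin. Its 20S core is a barrel of alpha rings, which form the gate, and beta rings, which hold the proteolytic sites, and its 19S cap holds a ring of ATPases (Rpt) that unfold the substrate and non-ATPase subunits (Rpn) that bind and remove ubiquitin. The complex is made of fixed numbers of each subunit, and in flies its genes are induced together by the Nrf factor encoded by cnc when proteasome activity is low. BEAF-32, Cp190 and Chro are architectural proteins found at borders of topologically associating domains (TADs). Dref is a transcription factor of many housekeeping promoters, where it binds the DNA replication-related element (DRE), and BEAF-32 binds clusters of the shorter word CGATA, which the DRE contains.

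The libraries held between 7178403 and 12202598 counts assigned to genes, and the tested core subunits had 536 to 6220 counts in any library. Each p-value measures the spread between libraries, which the labels do not state to come from separate cultures. BEAF-32 RNAi replicate 3 stood apart: the chi-square per degree of freedom between it and the other 2 libraries of its group was 104 and 109, against 2.21 to 7.13 for every other pair of replicates, so calls are also given without it. BEAF-32, Cp190, Chro and Dref each had a lower mean in every knockdown than in WT, including knockdowns that did not target them. The log2 fold changes ran from -1.01 to -0.31, and BEAF-32 in Cp190 Chro RNAi was not called (adjusted p = 0.206). Mean BEAF-32 was 53.4 and 55.1 CPM in the knockdowns that targeted it, against 73.2 CPM in Cp190 Chro RNAi. Mean Cp190 was 297 CPM in Cp190 Chro RNAi, against 296 CPM in BEAF-32 RNAi and 293 CPM in BEAF-32 Dref RNAi. Mean Chro was 196 CPM in Cp190 Chro RNAi, against 182 CPM in BEAF-32 RNAi and 164 CPM in BEAF-32 Dref RNAi. The means in BEAF-32 RNAi hide a wide spread. Cp190 ran there from 232 to 329 CPM (median 328), against 287 to 315 CPM in Cp190 Chro RNAi (median 290). Chro ran there from 101 to 223 CPM (median 221), against 187 to 205 CPM in Cp190 Chro RNAi (median 197). The share of reads not placed uniquely was 21.0% to 29.5% in the knockdowns, against 16.0% to 17.0% in WT. Of the markers checked, the summed level of 5 glial genes was 328 to 605 CPM in the knockdowns, against 889.7 to 920 CPM in WT, a gap that lay in nrv2, with group means of 189 to 220.4 CPM in the knockdowns and 609 CPM in WT. The means of the glial genes repo and moody were 52.2 to 78.7 and 234 to 304 CPM in the knockdowns, against 60.3 and 229.6 CPM in WT. The summed level of 4 muscle genes, nearly all of it Act57B, was 139.7 to 654 CPM in BEAF-32 RNAi, against 175 to 182 CPM in WT. Of 6 hemocyte genes, srp had a mean of 804 CPM in WT, against 606 to 648 CPM in the knockdowns. Pxn had 28.2 CPM in WT and 28.8 to 48.0 CPM in the knockdowns, and eater 1.67 CPM and 2.42 to 16.0 CPM. Hml, NimC1 and lz were near 0 in WT. Neuronal elav was present in WT, at 77.5 CPM, while the neuronal genes nSyb and brp and the neuroblast genes dpn and wor were near 0. The neuroblast gene mira had means of 1.91 to 2.94 CPM in the knockdowns, against 37.4 CPM in WT, while insc had 12.7 to 32.9 CPM and pros 7.67 to 11.04 CPM in the knockdowns, against 2.27 and 2.08 CPM in WT. The part of these differences in the results was not tested, and in bulk samples fewer cells of a type and less RNA per cell cannot be told apart.

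Of the 47 proteasome genes, 34 passed the minimum of 10 counts over the 12 libraries, namely 31 core subunits, Rpt3R, Rpt6R and Prosbeta2R2. Of the 13 others, 8 had no count in any library and 5 paralogs had 1 to 8 counts in all. Prosalpha1, the one core subunit without counts, lies on 2R at 7827303 to 7828678 (dm6, minus strand), and 952 bases of its exons are 100% identical to a neighbouring copy, Prosalpha1R. Reads from identical copies cannot be assigned to one of them, so its level is unknown here.

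The tested core subunits were abundant and close to each other in level. Their median was 211 CPM (gene counts divided by the TMM-scaled library size) in WT, against 27.1 CPM over all 10545 genes tested, and they stood between the 67.2th and the 96.5th percentile of those genes. Divided by exon length in kilobases (RPKM), the levels in WT spanned 5.41-fold, with a median of 152 RPKM and quartiles of 131 and 191 RPKM. Prosalpha4 was highest, at 399 ± 27.2 RPKM in BEAF-32 RNAi, 373 ± 30.7 in Cp190 Chro RNAi, 380.0 ± 6.53 in BEAF-32 Dref RNAi and 422 ± 17.3 in WT (SD, n = 3 each). Prosalpha2 came next, at 283 ± 9.75, 312 ± 8.30 and 292 ± 1.87 RPKM in the same knockdowns and 275 ± 10.1 RPKM in WT. Both encode alpha ring subunits, and they held the first and second ranks in every group without overlap between their libraries. At the low end in WT stood Rpn9, a non-ATPase of the cap, at 82.7 ± 5.37, 91.3 ± 6.51 and 87.6 ± 2.77 RPKM in the knockdowns and 89.7 ± 2.38 RPKM in WT. Prosbeta4, a beta ring subunit without a proteolytic site, was lowest in WT at 78.0 ± 3.64 RPKM, against 88.5 ± 7.57, 93.9 ± 10.1 and 93.8 ± 3.76 RPKM in the knockdowns. The libraries of Prosbeta4 and Rpn9 overlapped in every knockdown but not in WT.

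**Figure D1:**
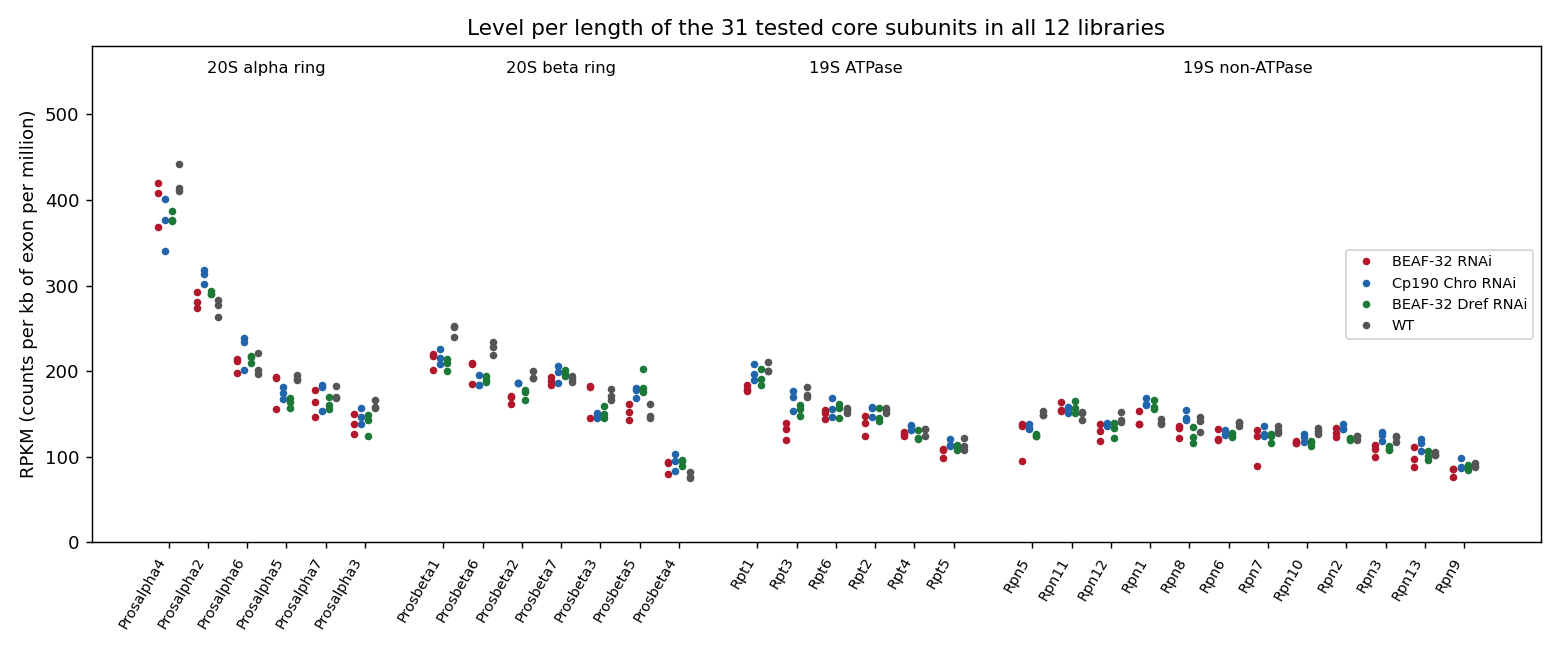
Level per length (RPKM, y axis) of the 31 tested core subunits, ordered by role along the x axis, with a point for each of the 12 libraries coloured by group. Prosalpha4 and Prosalpha2 stand above the other subunits in every group, while the WT median is 152 RPKM.

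Summed over the core, the levels were 6554 ± 275 CPM in BEAF-32 RNAi, 7002 ± 182 CPM in Cp190 Chro RNAi, 6696 ± 43.7 CPM in BEAF-32 Dref RNAi and 7008 ± 133 CPM in WT (SD, n = 3 each). The core thus took 0.612% to 0.719% of the gene counts in every library. The subunits also varied little between replicates, with a median coefficient of variation of 6.24%, 4.15% and 3.73% in the knockdowns and 3.07% in WT. Over all genes tested the same median was 24.7%, 8.67% and 8.31% in the knockdowns and 7.00% in WT, but those genes were mostly of lower count.

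A smaller share of the proteasome genes passed the test than of genes at large, and those that did mostly moved by small amounts. The shares are set side by side as a description. In BEAF-32 RNAi against WT, 1 of 34 members was higher and 3 were lower at an adjusted p below 0.05 (edgeR quasi-likelihood test), where 18.5% of all genes tested were higher and 15.7% lower. In Cp190 Chro RNAi, 5 members were higher and 2 lower, against a background of 17.9% and 15.6%. In BEAF-32 Dref RNAi, 4 members were higher and 4 lower, against a background of 21.5% and 20.3%. In either direction the background was 34.2%, 33.6% and 41.8%. Scaling by total counts or by relative log expression left 4 higher and 2 lower there, and total counts left 1 higher and 1 lower in BEAF-32 RNAi. No member passed with a change of 4-fold or more in any knockdown, while 8.17%, 6.54% and 8.07% of all genes tested did. The median log2 fold change of the 34 members was -0.09, 0.02 and -0.07, against 0.07, 0.02 and 0.03 over all genes tested. All of these are smaller than most single changes called. In BEAF-32 RNAi the members' median was -0.02 without replicate 3, and in BEAF-32 Dref RNAi the median of all genes was -0.01 with edgeR's own filter on low counts.

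**Figure D2:**
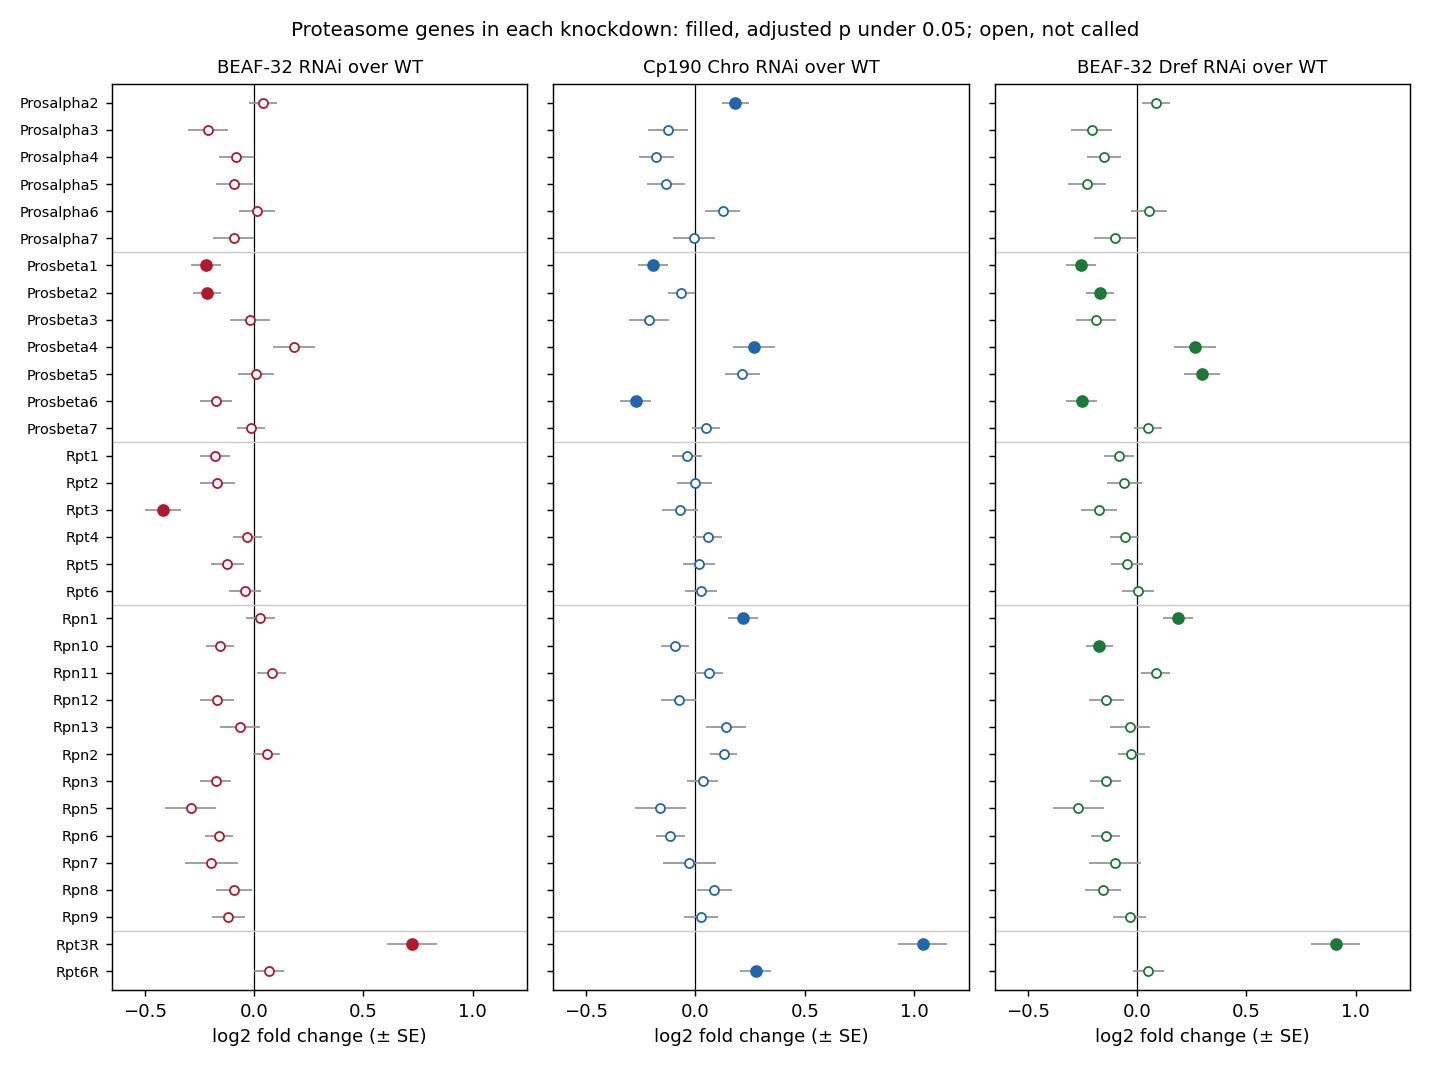
Log2 fold change over WT (x axis, with approximate SE) of 33 of the 34 tested proteasome genes (rows, Prosbeta2R2 left out for its low counts) in a panel per knockdown, filled where the adjusted p was below 0.05. Rpt3R lies farthest right in every panel, at 0.72, 1.04 and 0.91, while the core subunits lie between -0.42 and 0.30.

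The counts depended on BEAF-32 RNAi replicate 3, whose spread enters the shared error of the fit. This library was the lowest of its group for 20 of the 31 core subunits, and their median log2 CPM relative to the WT mean was -0.20 in it, against -0.07 and -0.05 in the other 2 libraries. Without it, 1 member was higher and 7 were lower in BEAF-32 RNAi (23.5% of members, against 46.1% of all genes tested). In Cp190 Chro RNAi, 9 were higher and 8 lower (50%, against 57.5%). In BEAF-32 Dref RNAi, 4 were higher and 14 lower (52.9%, against 61.1%). By direction, the background was then 23.2% higher and 22.9% lower, 29.2% and 28.4%, and 30.8% and 30.3%. The lower members in BEAF-32 Dref RNAi were thus a larger share than the background, and the higher members a smaller share. In the other knockdowns both shares were below the background, and these differences were not tested. The genes that fell in BEAF-32 RNAi were then Prosbeta1, Prosbeta2, Rpn5, Rpn6, Rpn10, Rpt1 and Rpt3. By position rather than test, 4 members in BEAF-32 RNAi had every library above every WT library and 13 every library below, where 23.7% and 22.8% of all genes tested did so. The same counts were 8 and 11 in Cp190 Chro RNAi (background 30.7% and 29.8%) and 6 and 14 in BEAF-32 Dref RNAi (background 33% and 31.8%).

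**Figure D3:**
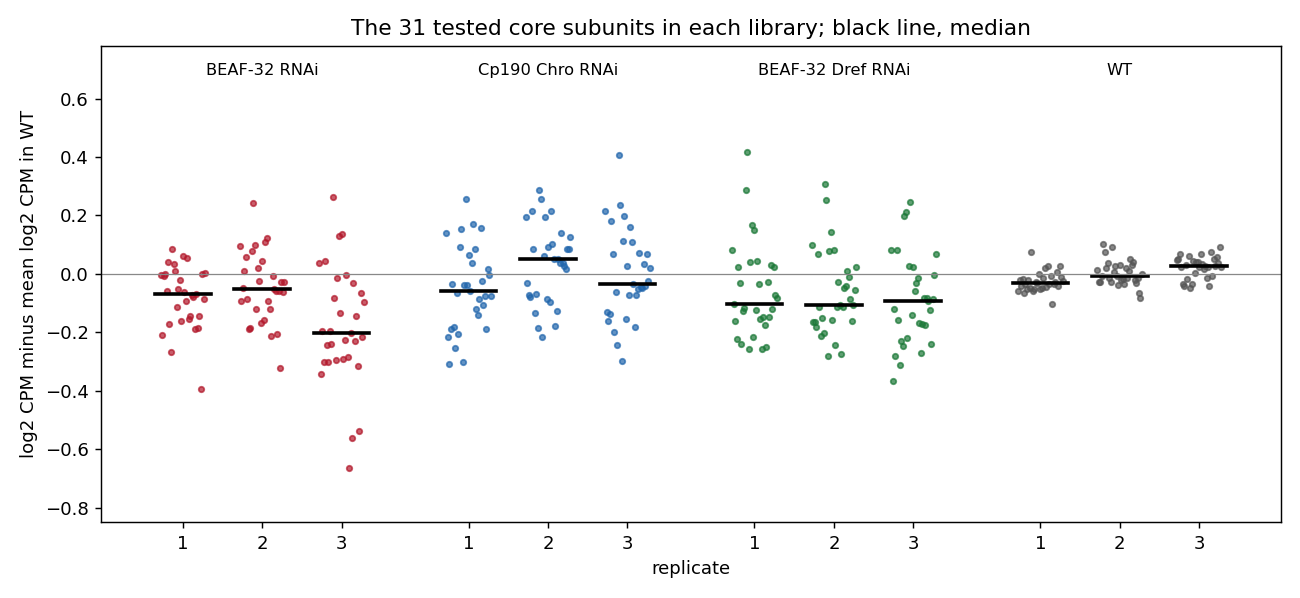
Log2 CPM minus the mean log2 CPM in WT (y axis) of the 31 tested core subunits in each of the 12 libraries (x axis, replicates within group), with a black line at the median. The medians lie between -0.20, in BEAF-32 RNAi replicate 3, and 0.05, and those of the BEAF-32 Dref RNAi libraries between -0.11 and -0.09.

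In the fit over all 12 libraries, 2 of the 3 core genes that passed in BEAF-32 RNAi, 3 of 5 in Cp190 Chro RNAi and 5 of 7 in BEAF-32 Dref RNAi belonged to the beta ring. These counts were 2 of 7, 5 of 15 and 6 of 17 without BEAF-32 RNAi replicate 3. Of the 7 beta genes, among 31 tested core genes, 2 fell in BEAF-32 RNAi and 1 rose and 2 fell in Cp190 Chro RNAi. In BEAF-32 Dref RNAi 2 rose and 3 fell, and the medians over the 3 knockdowns were -0.02, -0.07 and -0.17. Of all genes tested, 34.2%, 33.6% and 41.8% were called in either direction in the full fit. The genes that encode the 3 proteolytic subunits did not move together. Prosbeta1, the caspase-like subunit, had 187, 185 and 172 CPM in BEAF-32 RNAi, 177, 193 and 184 CPM in Cp190 Chro RNAi and 179, 183 and 170.3 CPM in BEAF-32 Dref RNAi, against 204, 214 and 216 CPM in WT. Every knockdown library was below every WT library, and the log2 fold changes were -0.22 ± 0.07, -0.20 ± 0.07 and -0.25 ± 0.07 (SE, n = 3 each), with adjusted p = 0.0286, 0.0455 and 0.0118. This gene fell in all 3 knockdowns, a call that was kept in 15, 7 and 18 of the 19 alternative settings.

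Prosbeta2, the trypsin-like subunit, had 168, 177 and 176 CPM in BEAF-32 RNAi, 193, 192 and 193 CPM in Cp190 Chro RNAi and 185, 182 and 172 CPM in BEAF-32 Dref RNAi, against 199, 207 and 199 CPM in WT. It fell by 0.22 ± 0.06 on the log2 scale in BEAF-32 RNAi (adjusted p = 0.0206) and by 0.17 ± 0.06 in BEAF-32 Dref RNAi (adjusted p = 0.0478). In Cp190 Chro RNAi the log2 fold change was -0.07 (adjusted p = 0.441), although no library there reached the WT range. Prosbeta5, the chymotrypsin-like subunit, had 174, 184 and 163 CPM in BEAF-32 RNAi, 192, 206 and 203 CPM in Cp190 Chro RNAi and 230.3, 206 and 199.8 CPM in BEAF-32 Dref RNAi, against 166, 184 and 168 CPM in WT. It was above WT in all libraries of both double knockdowns and overlapped WT in BEAF-32 RNAi. Its log2 fold change was 0.01 in BEAF-32 RNAi (adjusted p = 0.944), 0.21 in Cp190 Chro RNAi (adjusted p = 0.0606) and 0.30 ± 0.08 in BEAF-32 Dref RNAi (adjusted p = 0.0129), so that it passed in the last. The difference between BEAF-32 Dref RNAi and BEAF-32 RNAi is given with the comparisons between knockdowns. Without BEAF-32 RNAi replicate 3 it also rose in Cp190 Chro RNAi.

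The other beta genes called were the structural subunits Prosbeta6 and Prosbeta4. Prosbeta6 had 198, 197 and 174 CPM in BEAF-32 RNAi, 174, 184 and 174 CPM in Cp190 Chro RNAi and 179, 176 and 184 CPM in BEAF-32 Dref RNAi, against 207, 215 and 221 CPM in WT. All knockdown libraries were below all WT libraries, and it fell by 0.27 ± 0.07 on the log2 scale in Cp190 Chro RNAi (adjusted p = 0.0129) and by 0.25 ± 0.07 in BEAF-32 Dref RNAi (adjusted p = 0.0146). In BEAF-32 RNAi the value was -0.17 (adjusted p = 0.0778). Prosbeta4 had 65.0, 75.2 and 76.2 CPM in BEAF-32 RNAi, 67.7, 77.6 and 84.2 CPM in Cp190 Chro RNAi and 77.6, 78.7 and 73.0 CPM in BEAF-32 Dref RNAi, against 67.0, 62.3 and 61.5 CPM in WT. It rose by a log2 fold change of 0.27 ± 0.10 in both double knockdowns (adjusted p = 0.0497 and 0.0433), values near the threshold, and was at 0.18 in BEAF-32 RNAi (adjusted p = 0.162). Prosbeta3 and Prosbeta7 passed in no knockdown, with log2 fold changes from -0.21 to 0.05.

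In the alpha ring, 1 of 6 tested genes passed in 1 knockdown and none in the others, and the medians were -0.09, -0.07 and -0.13. Prosalpha2 had 252, 269.5 and 259 CPM in BEAF-32 RNAi, 278, 289 and 293 CPM in Cp190 Chro RNAi and 267, 270.2 and 267 CPM in BEAF-32 Dref RNAi, against 242, 255 and 261 CPM in WT. It rose in Cp190 Chro RNAi by a log2 fold change of 0.18 ± 0.06 (adjusted p = 0.0420), while it was at 0.04 in BEAF-32 RNAi cells and at 0.09 in BEAF-32 Dref RNAi cells and was not called there. Prosalpha4, the most abundant subunit, had 494, 480.0 and 433 CPM in BEAF-32 RNAi, 400.0, 472 and 443 CPM in Cp190 Chro RNAi and 443, 442 and 456 CPM in BEAF-32 Dref RNAi, against 482, 487 and 519 CPM in WT. It lay below WT without overlap in both double knockdowns but was not called, with adjusted p = 0.102 in Cp190 Chro RNAi, where its log2 fold change was -0.18. Prosalpha3, 5, 6 and 7 had log2 fold changes from -0.23 to 0.12 and passed in no knockdown.

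Among the 6 ATPases of the cap, Rpt3 passed in BEAF-32 RNAi, and no other ATPase passed in any knockdown. Rpt3 (X, 11125101 to 11126785, plus strand, dm6) had 206, 217 and 187 CPM in BEAF-32 RNAi, 238, 274 and 263 CPM in Cp190 Chro RNAi and 249, 243 and 229.7 CPM in BEAF-32 Dref RNAi, against 263, 268 and 282 CPM in WT. The BEAF-32 RNAi libraries were below every library of the 3 other groups. Rpt3 fell there by 0.42 ± 0.08 on the log2 scale (adjusted p = 0.00259), which is 25.1% of its level, the largest decrease of any tested member. Without replicate 3 its log2 fold change there was -0.36 ± 0.06 and it was still called, and it then also fell in BEAF-32 Dref RNAi by 0.18 ± 0.05. In Cp190 Chro RNAi and BEAF-32 Dref RNAi the log2 fold changes were -0.07 (adjusted p = 0.526) and -0.17 (adjusted p = 0.105). The other ATPases, Rpt1, Rpt2, Rpt4, Rpt5 and Rpt6, had log2 fold changes from -0.18 to 0.06 over the 3 knockdowns, and the medians over the ring were -0.14, 0.01 and -0.06.

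Of the 12 non-ATPase genes of the cap that the name rule took, none passed in BEAF-32 RNAi. In Cp190 Chro RNAi 1 rose, and in BEAF-32 Dref RNAi 1 rose and 1 fell. The medians were -0.14, 0.03 and -0.12. Rpn1, a large scaffold that also docks ubiquitin and shuttle proteins, had 421.5, 421.1 and 468 CPM in BEAF-32 RNAi, 511, 489.6 and 491 CPM in Cp190 Chro RNAi and 481, 472 and 507 CPM in BEAF-32 Dref RNAi, against 419, 425 and 439.8 CPM in WT. It rose in both double knockdowns, by log2 fold changes of 0.22 ± 0.07 (adjusted p = 0.0293) and 0.19 ± 0.07 (adjusted p = 0.0453), and was at 0.03 in BEAF-32 RNAi. Rpn10, a ubiquitin receptor, had 166, 165 and 169 CPM in BEAF-32 RNAi, 180.5, 175 and 167 CPM in Cp190 Chro RNAi and 159.8, 166 and 168 CPM in BEAF-32 Dref RNAi, against 185, 181 and 191 CPM in WT. It fell in BEAF-32 Dref RNAi by 0.17 ± 0.06 on the log2 scale (adjusted p = 0.0474), and the values in the other knockdowns were -0.16 and -0.09.

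The subunit least abundant per length among the Rpn genes, Rpn9, had 144, 144 and 128 CPM in BEAF-32 RNAi, 148, 166 and 146 CPM in Cp190 Chro RNAi and 148, 151 and 142 CPM in BEAF-32 Dref RNAi, against 147, 155 and 149.9 CPM in WT. Those groups overlapped, apart from BEAF-32 RNAi, which lay below WT, and none was called. Rpn11, the deubiquitinase of the cap, had log2 fold changes of 0.08, 0.06 and 0.09, and the ubiquitin receptor Rpn13 had -0.06, 0.14 and -0.03. Neither passed in any knockdown.

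The paralogs included the one tested member that rose in all 3 knockdowns. Many T and R copies are transcribed mainly in the male germline of flies, and 12 of the 15 did not pass the count minimum here. Rpt3R (3R, 9754735 to 9756510, minus strand, dm6), the copy of Rpt3, had 29.8, 31.1 and 30.3 CPM in BEAF-32 RNAi, 37.2, 40.0 and 36.3 CPM in Cp190 Chro RNAi and 35.4, 31.8 and 36.4 CPM in BEAF-32 Dref RNAi, against 15.3, 20.4 and 19.5 CPM in WT. No knockdown library overlapped WT. The log2 fold changes were 0.72 ± 0.11, 1.04 ± 0.11 and 0.91 ± 0.11 (SE, n = 3 each), or 1.65-, 2.05- and 1.88-fold, with adjusted p = 0.00072, 5.24e-05 and 0.000122. It was called in all 19 alternative settings in each knockdown, with log2 fold changes of 0.61 to 0.80, 0.92 to 1.12 and 0.79 to 0.99.

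Per length, Rpt3R made up 12.3% to 14.8% of the sum of Rpt3 and Rpt3R in the knockdown libraries, against 5.85% to 7.54% in WT. The pair is 78.5% identical over 1179 aligned exon bases, with no identical run longer than 25 bases. Rpt3R shares 20 exon bases with Alg12 on the opposite strand (counted as CG8412), which itself had log2 fold changes of 0.86, 0.70 and 0.95, of which the first and the last were called. The study's code ran HTSeq with no strand option, a default that counts reads of one strand, and its sources do not say whether the libraries mark strand, so reads from that overlap cannot be told apart. Within 20 kb of Rpt3R, 16 neighbours were tested, and 5, 4 and 5 were higher and 4, 4 and 4 lower in the 3 knockdowns. Of all genes tested, 18.5%, 17.9% and 21.5% were higher and 15.7%, 15.6% and 20.3% lower. Within 20 kb of Rpt3, 11 neighbours were tested, and 2, 1 and 1 were higher and 1, 2 and 2 lower. These differences were not tested. The summed level of 8 testis and germline markers was 7.50 to 14.5 CPM in the knockdowns, against 2.09 to 2.38 CPM in WT. The gap lay in vas, nos and bam, with means in WT of 0.82, 1.255 and 0.156 CPM. Their means in the knockdowns were 2.83 to 4.2, 2.96 to 4.37 and 1.98 to 3.35 CPM. The means of betaTub85D and Mst87F were 0 to 0.138 CPM in every group, and aly, can and dj were at 0 in every library. The part of these markers in the level of Rpt3R was not tested.

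Rpt6R (3R, 30582198 to 30583697, minus strand, dm6), the copy of Rpt6, had 75.4, 72.7 and 74.2 CPM in BEAF-32 RNAi, 89.9, 87.3 and 79.4 CPM in Cp190 Chro RNAi and 74.5, 71.8 and 73.5 CPM in BEAF-32 Dref RNAi, against 72.4, 70.4 and 69.3 CPM in WT. It rose in Cp190 Chro RNAi by a log2 fold change of 0.27 ± 0.07 (adjusted p = 0.0111, called in all 19 alternatives), and was at 0.07 and 0.05 in the other knockdowns. Per length it made up 23.4% to 29.8% of the sum of Rpt6 and Rpt6R over all libraries, a larger share than that of Rpt3R in its pair. Prosbeta2R2 had 6, 6 and 8 counts in BEAF-32 RNAi, 4, 7 and 4 in Cp190 Chro RNAi and 12, 2 and 3 in BEAF-32 Dref RNAi, against 0, 2 and 4 counts in WT. At this depth no difference was detectable, with adjusted p = 0.0808, 0.269 and 0.127.

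**Figure D4:**
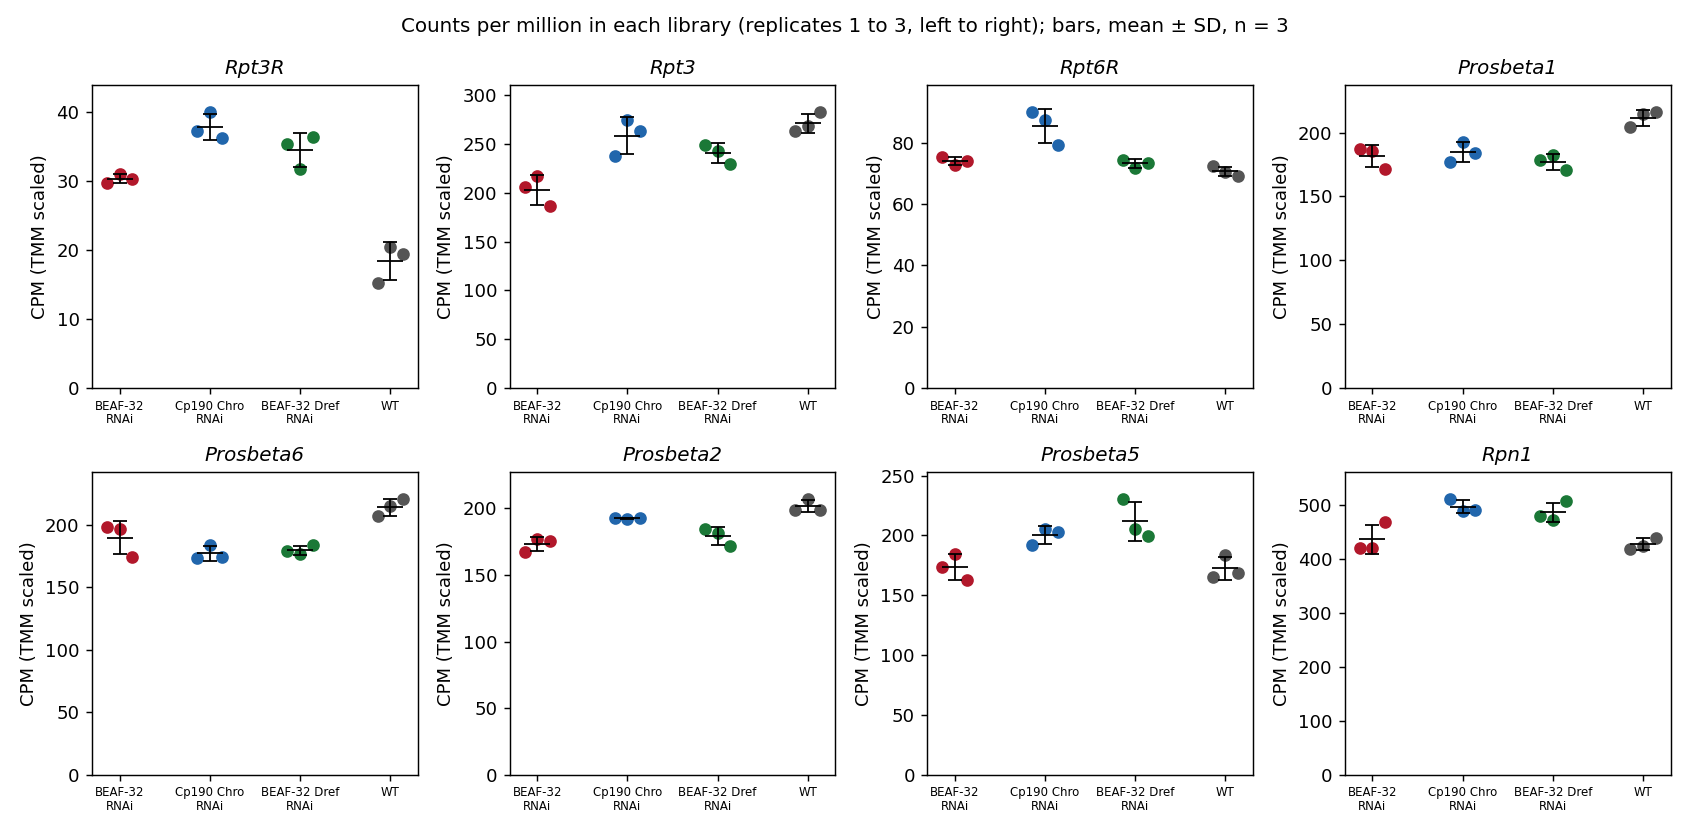
CPM (y axis, from 0) of Rpt3R, Rpt3, Rpt6R, Prosbeta1, Prosbeta6, Prosbeta2, Prosbeta5 and Rpn1 in each library, with replicates 1 to 3 from left to right in each group and bars for mean ± SD (n = 3). Rpt3R reaches 29.8 to 40.0 CPM in the knockdowns against 15.3 to 20.4 CPM in WT, and Rpt3 is lowest in the BEAF-32 RNAi libraries.

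Between knockdowns, BEAF-32 Dref RNAi was first compared with BEAF-32 RNAi. Dref mRNA itself had 127.8 to 133.7 CPM (median 128.3) in BEAF-32 Dref RNAi and 85.3 to 146 CPM (median 143.9) in BEAF-32 RNAi. The means were 130 and 125 CPM, so that medians and means differed in order. The comparison of these libraries therefore does not settle whether Dref mRNA was lost further. Protein was not part of these data, while the paper reports efficient depletion of mRNA and protein in this double knockdown. No member passed in edgeR, where 5.74% of all genes did (3.03% higher and 2.7% lower), although 3 members had an unadjusted p below 0.05 and DESeq2 called 2. The smallest p-values belonged to Prosbeta5, with a log2 fold change of 0.29 ± 0.08 (adjusted p = 0.0613), and Rpt3, at 0.24 ± 0.08 (adjusted p = 0.102). Without BEAF-32 RNAi replicate 3, 3 members were higher and 6 lower (26.5%, against 42.9% of all genes, 21.4% higher and 21.5% lower). Prosbeta5, Rpn1 and Rpt3 were then higher in BEAF-32 Dref RNAi, and Prosalpha4, Prosalpha5, Prosbeta3, Prosbeta6, Rpn2 and Rpn5 were lower.

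Rpt3 was the one member that passed in Cp190 Chro RNAi against BEAF-32 RNAi, where 6.9% of all genes passed (3.65% higher and 3.25% lower). Its log2 fold change was 0.35 ± 0.08 (adjusted p = 0.0274), a call kept in 12 of the 19 alternative settings and lost in 7, with adjusted p up to 0.276. Rpt6R came next, at 0.21 ± 0.07 (adjusted p = 0.102). Without BEAF-32 RNAi replicate 3, 10 members were higher and 4 lower (41.2%, against 37.9% of all genes, 20.1% higher and 17.8% lower). In BEAF-32 Dref RNAi against Cp190 Chro RNAi edgeR called 0 of all genes, with 4 members and 405 genes at an unadjusted p below 0.05, and DESeq2 called 6 genes and 0 members. Rpt6R and Rpn8, a partner of the deubiquitinase Rpn11, had the smallest p-values there, with log2 fold changes of -0.22 ± 0.07 and -0.24 ± 0.08 (adjusted p = 0.958 for both). The same BEAF-32 RNAi library enters this comparison through the shared error alone. Without it, 5 members were lower in BEAF-32 Dref RNAi, namely Rpn2, Rpn3, Rpn8, Rpn13 and Rpt6R, and 0 were higher. That is 14.7% of members, where 6.91% of all genes were lower and 5.9% higher.

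A larger share of core promoters than of all tested promoters carried the word bound by Dref. In the window from 250 bases before to 50 bases after the start (Release 6 genome, Ensembl gene starts), the DRE word TATCGATA was found on either strand in 12 of 32 core promoters (37.5%), against 1218 of 10433 tested genes (11.7%) and 0 of 15 paralogs. The DRE word is the same on both strands and holds CGATA on each. CGATA on either strand was found in 27 of 32 core promoters (84.4%), against 50.8% of tested genes, and the antioxidant element TGACNNNGC, a site for Nrf factors, in 5 of 32 (15.6%), against 8.9%. A gene on the opposite strand started within 500 bp upstream of 18 of 32 core genes (56.2%), against 29.4% of tested genes. These shares describe letters in a window, not binding, and their differences were not tested.

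The 100 bases before the start are shown for called members with and without the DRE and for Prosalpha6, a DRE gene that was not called, written 5′ to 3′ on the strand of the gene with TATCGATA and CGATA of either strand in capitals. Prosbeta2 lies at chr3L:14999851-14999950 (plus), Prosbeta6 at chr3L:16610419-16610518 (minus), Prosalpha6 at chr2L:10221251-10221350 (plus), Prosbeta4 at chr2L:16732134-16732233 (minus), Rpn1 at chr3L:19914951-19915050 (plus) and Rpt3 at chrX:11125001-11125100 (plus), all in dm6.
Prosbeta2: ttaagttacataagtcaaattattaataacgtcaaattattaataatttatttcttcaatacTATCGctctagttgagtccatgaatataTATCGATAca
Prosbeta6: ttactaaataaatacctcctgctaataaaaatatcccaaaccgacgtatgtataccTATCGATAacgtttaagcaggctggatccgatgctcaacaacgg
Prosalpha6: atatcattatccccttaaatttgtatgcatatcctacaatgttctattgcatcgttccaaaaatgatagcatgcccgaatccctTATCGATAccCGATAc
Prosbeta4: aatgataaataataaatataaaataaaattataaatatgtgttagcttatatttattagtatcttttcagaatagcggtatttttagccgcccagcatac
Rpn1: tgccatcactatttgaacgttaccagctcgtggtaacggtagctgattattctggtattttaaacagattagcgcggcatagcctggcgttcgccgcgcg
Rpt3: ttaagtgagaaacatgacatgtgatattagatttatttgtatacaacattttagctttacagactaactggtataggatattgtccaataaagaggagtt
The first 3 hold 1 DRE each, and the last 3 hold neither word in these 100 bases.

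The 12 DRE-bearing core genes were Prosalpha3, Prosalpha5, Prosalpha6, Prosbeta1, Prosbeta2, Prosbeta6, Rpn3, Rpn7, Rpn9, Rpn12, Rpn13 and Rpt5. Their median log2 fold changes were -0.17 in BEAF-32 RNAi, -0.05 in Cp190 Chro RNAi and -0.14 in BEAF-32 Dref RNAi, against -0.04, 0.03 and -0.06 in the 19 tested core genes without the word. In the fit over all libraries, 0 of the DRE-bearing genes were higher in any knockdown, and 2, 2 and 3 were lower, all of them calls of Prosbeta1, Prosbeta2 and Prosbeta6. Of those without the word 0, 3 and 3 were higher and 1, 0 and 1 lower, with Prosbeta4 and Rpn1 among the risers. Without BEAF-32 RNAi replicate 3, 0, 2 and 0 of the DRE-bearing genes were higher and 2, 4 and 7 lower, against 0, 5 and 3 higher and 5, 4 and 7 lower of those without it. The DRE-bearing genes that were then higher in Cp190 Chro RNAi were Prosalpha6, at 0.12 ± 0.05 (adjusted p = 0.0466), and Rpn13, at 0.14 ± 0.05 (adjusted p = 0.0279). This split was not tested, the ranges of both sets overlapped in every knockdown, and the counts of both sets lie beside the background shares of all genes given above.

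TAD borders and loops were read from the Hi-C lists of the knockdowns, which come from 2 merged replicates each, so no test between knockdowns is possible and a WT list was not analysed here. Start sites of the 31 tested core subunits were within 5 kb of a TAD border for 10 genes in BEAF-32 RNAi (32.3%, against 41.3% of tested genes), 6 in Cp190 Chro RNAi (19.4%, against 32.9%) and 4 in BEAF-32 Dref RNAi (12.9%, against 16.8%). The median distance was 9.41, 14.4 and 30.1 kb, against 7.11, 10.2 and 27.6 kb over tested genes. The share of core genes was below that of tested genes in each list, a difference that was not tested, and both shares were lowest in BEAF-32 Dref RNAi. Of these knockdowns, the paper lists the most TAD borders for BEAF-32 RNAi and the fewest for BEAF-32 Dref RNAi. The latter also had the fewest Hi-C read pairs. Shares and distances were not adjusted for this. To the nearest border of the strong lists the median distance was 30.6, 36.1 and 137 kb for core genes, against 34.7, 52.3 and 156 kb over tested genes, so that the order of the medians turned. Rpn10 started 68 bp from a border that was at the same position in all 3 lists.

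Rpt3 started 594 bp from a border in BEAF-32 RNAi, 16036 bp in Cp190 Chro RNAi and 34961 bp in BEAF-32 Dref RNAi. The TAD around it spanned 31.4, 46.8 and 92.5 kb and held 14, 14 and 20 tested genes. For Rpt3R the distances were 6947, 31112 and 50623 bp, in TADs of 38.1, 84.6 and 104.1 kb with 13, 31 and 34 tested genes. The median distance over all tested genes grew in the same order, at 7.11, 10.2 and 27.6 kb. The part of the number of borders per list in these values was not tested. Start sites at loop anchors were rare. Rpn9 lay in an anchor in BEAF-32 RNAi (chr3R:23732001-23734000, joined to chr3R:23748001-23750000 with 76 contacts) and Prosbeta7 in one in Cp190 Chro RNAi (chr3R:5358001-5360000, joined to chr3R:5296001-5298000 with 25 contacts). No core gene lay in an anchor in BEAF-32 Dref RNAi, and the shares were 3.23%, 3.23% and 0%, against 3.36%, 5.42% and 2.22% of tested genes.

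Of 32 other genes of the ubiquitin and proteasome pathway, a larger share passed than of the proteasome genes chosen by name. Among them is Sem1, a cap subunit that the name rule does not take, which was not called in the fit over all libraries. The others comprise ubiquitin genes, the activating enzyme, conjugating enzymes, shuttles, the segregase Ter94 with its cofactors, deubiquitinases, assembly factors and the Nrf factor cnc with its regulators. In BEAF-32 RNAi 5 were higher and 3 lower, in Cp190 Chro RNAi 5 and 6, and in BEAF-32 Dref RNAi 6 and 7, with medians of 0.06, -0.08 and 0.01. These counts are near the background shares given above. No partner changed by 4-fold or more with an adjusted p below 0.05.

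Keap1, the adaptor that holds the Nrf factor for degradation, had 29.1, 26.5 and 61.6 CPM in BEAF-32 RNAi, 39.4, 32.4 and 29.1 CPM in Cp190 Chro RNAi and 43.0, 41.2 and 41.4 CPM in BEAF-32 Dref RNAi, against 13.2, 16.0 and 13.6 CPM in WT. It rose in all 3 knockdowns without overlap, by log2 fold changes of 1.44 ± 0.27, 1.24 ± 0.27 and 1.55 ± 0.27 (adjusted p = 0.00214, 0.00509 and 0.00107). BEAF-32 RNAi replicate 3 was the highest library, and without it the value in BEAF-32 RNAi was 0.96 ± 0.13 and still called. Ubc6, a conjugating enzyme related to yeast Rad6, had 258, 264 and 585 CPM in BEAF-32 RNAi, 363, 349.7 and 335 CPM in Cp190 Chro RNAi and 451, 439.9 and 433 CPM in BEAF-32 Dref RNAi, against 187, 192 and 193 CPM in WT. Its log2 fold changes were 0.95 ± 0.24, 0.87 ± 0.24 and 1.21 ± 0.25 (adjusted p = 0.0119, 0.0179 and 0.00268), and 0.45 ± 0.05 in BEAF-32 RNAi without replicate 3. The polyubiquitin gene Ubi-p5E rose as well, by 0.52 ± 0.08, 0.28 ± 0.08 and 0.29 ± 0.08.

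Ter94, which pulls ubiquitinated proteins out of complexes and membranes, had 929, 963 and 1270.2 CPM in BEAF-32 RNAi, 1317, 1303 and 1221 CPM in Cp190 Chro RNAi and 1260.4, 1254 and 1279.7 CPM in BEAF-32 Dref RNAi, against 936, 932 and 975 CPM in WT. It rose in both double knockdowns, by log2 fold changes of 0.43 ± 0.10 and 0.42 ± 0.10 (adjusted p = 0.00861 and 0.00821). Of the BEAF-32 RNAi libraries replicate 3 alone was above the WT range. The Nrf factor cnc and the proteasome regulator PI31 rose in BEAF-32 Dref RNAi, by 0.53 ± 0.19 (adjusted p = 0.0397) and 0.87 ± 0.23 (adjusted p = 0.0101). Without BEAF-32 RNAi replicate 3 both also rose in Cp190 Chro RNAi, by 0.38 ± 0.06 and 0.63 ± 0.06.

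On the lower side, Uch-L5, a deubiquitinase that binds the cap, had 96.8, 114 and 72.2 CPM in BEAF-32 RNAi, 100.7, 108 and 103 CPM in Cp190 Chro RNAi and 85.8, 87.5 and 85.7 CPM in BEAF-32 Dref RNAi, against 129, 127 and 129 CPM in WT. It fell by 0.45 ± 0.13 on the log2 scale in BEAF-32 RNAi (adjusted p = 0.0181) and by 0.57 ± 0.13 in BEAF-32 Dref RNAi (adjusted p = 0.00409). Without replicate 3 of BEAF-32 RNAi its log2 fold change in that knockdown was -0.29 ± 0.07, and it was also called in Cp190 Chro RNAi, at -0.31 ± 0.06 (adjusted p = 7.46e-06). The conjugating enzyme vih, which works with the anaphase-promoting complex, fell by 0.47 ± 0.09 in Cp190 Chro RNAi and 0.54 ± 0.09 in BEAF-32 Dref RNAi (adjusted p = 0.00178 and 0.000602). Ubc7, a conjugating enzyme of endoplasmic reticulum-associated degradation, fell in all 3 knockdowns, by 0.35 ± 0.10, 0.36 ± 0.10 and 0.42 ± 0.10, and so did CG12096, listed here among the assembly factors, by 0.42 ± 0.10, 0.28 ± 0.10 and 0.30 ± 0.10. The other partners called were Ubi-p63E, Uba1, RpS27A, Ubc2, REG, p47 and Usp14, with log2 fold changes between -0.33 and 0.37.

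**Figure D5:**
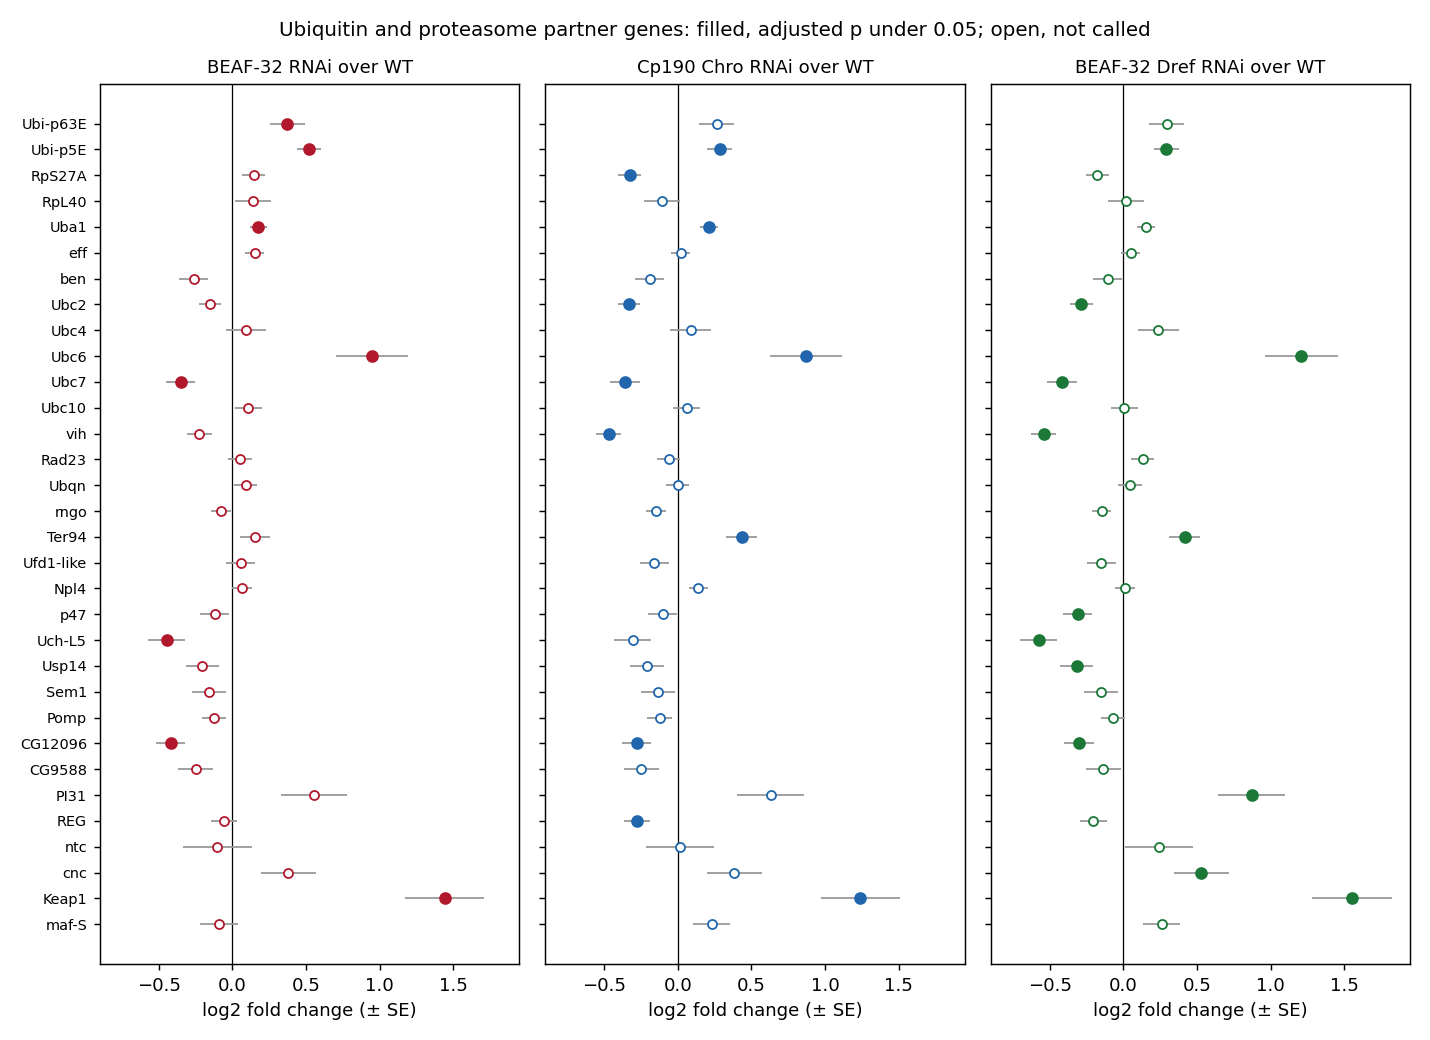
Log2 fold change over WT (x axis, with approximate SE) of the 32 partner genes (rows, grouped by role) in a panel per knockdown, filled where the adjusted p was below 0.05. Keap1 lies farthest right in every panel, at 1.44, 1.24 and 1.55, with Ubc6 next.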

How the data were processed

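RNA-seq was done in 12 libraries of BG3 cells, 3 per group, and Hi-C lists were used for the 3 knockdowns. The authors deposited raw gene counts, for which reads were trimmed by Trimmomatic (0.39), placed on dm6 by Bowtie2 (2.3.4.1) within TopHat2 (2.1.2), cleared of duplicates by Picard and counted by HTSeq with no strand option given. The authors also deposited TAD lists with a separation score from HiCExplorer, and loop lists from Juicer HiCCUPS at merged replicates, whose signal is the observed contacts at the loop pixel. Rows that name no gene were left out of library sizes. Of all counted lines, gene rows included, reads without a feature made up 39.4% to 44.1%, ambiguous reads 0.486% to 0.598% and reads not placed uniquely 16.0% to 29.5%.

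Counts were tested with edgeR (4.0.16, R 4.3.3), TMM scaling, quasi-likelihood F tests over all 12 libraries with no block, on the 10545 genes whose 12 counts summed to 10 or more, and Benjamini-Hochberg adjustment over all of them. A gene was called at an adjusted p below 0.05, and 4-fold changes are absolute log2 fold changes of at least 2. Standard errors are approximate, from the fold change and the F statistic. CPM and RPKM were computed from the counts, RPKM with Ensembl exon lengths. The scripts were tested on simulated data. Alternatives were DESeq2 (1.42.0), other scalings and filters, fits on 2 groups, a replicate block and leaving out each library. Values per library are given for the 4 members of smallest p in each direction and comparison with WT, the highest and lowest 2 by RPKM, the tested paralogs, the 2 of smallest p between knockdowns and up to 4 partners per direction. Members, lists and tests were chosen with earlier results of these data known. Alternatives on the partner genes were added after seeing the data. All 47 member symbols were matched to the Ensembl annotation of the same build, whose starts gave the promoters, read from the RefSeq genome. Sequences of 2R and of neighbouring untranslated regions were not printed.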

Additional observations from a re-analysis of the deposited data

How the results depend on the processing

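No called member result turned its direction in the 19 alternatives. Without BEAF-32 RNAi replicate 3, uncalled values changed sign in BEAF-32 RNAi for Prosalpha5, Prosbeta3, Rpn1 and Rpn13 and in BEAF-32 Dref RNAi for Rpt6. Rpt3R kept its call in all 19 in each knockdown, as did Rpt3 in BEAF-32 RNAi and Rpt6R in Cp190 Chro RNAi. Calls near the threshold were lost more often, and Rpn10 in BEAF-32 Dref RNAi held in 3 of 19. Percentages beside the counts below are the share of all genes called in the same setting. In BEAF-32 RNAi, 4 members were called, against 2 with total-count scaling (33.1%) and 2 in a fit on the 2 groups alone (15%). In Cp190 Chro RNAi, 7 were called, against 3 with no filter (24.9%) and 16 on 2 groups (60.8%). In BEAF-32 Dref RNAi, 8 were called, against 4 with no filter (31.4%) and 19 on 2 groups (66%). The fits on 2 groups leave out 6 libraries. Between knockdowns, BEAF-32 Dref RNAi against BEAF-32 RNAi went to 2 in DESeq2 (11%). Cp190 Chro RNAi against BEAF-32 RNAi went to 2 in DESeq2 (11.4%) and to 0 with total counts (6.62%) or on 2 groups (0.299%). BEAF-32 Dref RNAi against Cp190 Chro RNAi went to 4 on 2 groups (10.4%). The median log2 fold change of the members in BEAF-32 Dref RNAi, -0.0712, was -0.0472 in DESeq2, -0.0470 with relative log expression, -0.0550 with total counts and -0.0526 with no filter. Called partners on 2 groups were 3, 23 and 22, against 8, 11 and 13, where the fits on 2 groups called 15%, 60.8% and 66% of all genes. The cause of these shifts was not tested.

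Leaving out 1 library at a time gave 2 to 8 called members in BEAF-32 RNAi (23.6% to 46.1% of all genes), 2 to 17 in Cp190 Chro RNAi (22.6% to 57.5%) and 2 to 18 in BEAF-32 Dref RNAi (31.9% to 61.1%). It gave 0 to 9 in BEAF-32 Dref RNAi against BEAF-32 RNAi (2.26% to 42.9% of all genes) and 0 to 14 in Cp190 Chro RNAi against BEAF-32 RNAi (2.54% to 37.9%). In BEAF-32 Dref RNAi against Cp190 Chro RNAi it gave 0 to 5 (0% to 12.8%). Members and all genes were each highest without BEAF-32 RNAi replicate 3. The medians ranged from -0.128 to -0.0248, -0.0250 to 0.0399 and -0.0810 to -0.0516. Called partners ranged from 4 to 15, 5 to 23 and 8 to 22, beside the same shares of all genes. Within 2 and 10 kb of a TAD border, the share of core genes in BEAF-32 RNAi was 12.9% and 51.6%, against 25.6% and 59.4% of tested genes, and in the strong list within 5 kb it was 9.7%, 6.5% and 0% in the 3 knockdowns, against 16.0%, 10.7% and 3.3%.

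No pairing by replicate number was seen: of 18 same-numbered pairs none correlated above 0.1 (r from -0.177 to 0.0687). The highest r, 0.201, was between Cp190 Chro RNAi replicate 1 and BEAF-32 Dref RNAi replicate 3, which differ in number. Such correlations cannot exclude a pairing. With the number as a replicate block, 4 members were called in Cp190 Chro RNAi (31.3% of all genes) and 4 in BEAF-32 Dref RNAi (39.6%). In Cp190 Chro RNAi against BEAF-32 RNAi the block left 0 (4.39% of all genes). Depth limited Prosbeta2R2 and the 5 untested paralogs with counts.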
